A study of Mus musculus with 9 samples.

Results

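The 8 genes described here encode the 6 chains of type IV collagen, Col4a1 to Col4a6, and the multiplexin collagen chains Col15a1 and Col18a1. They were chosen by name: every non-control probe whose gene name in the scanner files was one of these symbols was taken, which gave 12 probes of 56605 on the array. A probe was kept where the 3 arrays of some group all read it as well above background. By that filter 10 of the 12 probes were kept, of 36817 kept in all, and they covered 7 of the 8 genes, among 23945 genes tested. Both probes of Col4a3 failed it.

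Expression was measured on 9 single-colour Agilent arrays in primary hepatic stellate cells, the vitamin A-storing pericytes of the liver sinusoid, from C57BL/6 mice aged 10 weeks. The si-cav group (3 arrays, called Cav1-siRNA cells below) had been cultured for 7 days on hard plates, where these cells turn into contractile myofibroblasts, and then transfected overnight with an siRNA against Cav1, the caveolin-1 gene, at 5 nM. The nc group (3 arrays, control-siRNA cells) had the same culture and a negative control siRNA at 5 nM, and the qhsc group (3 arrays, quiescent cells) had no treatment, with no harvest time given in the labels. All groups share strain, age and isolation by collagenase perfusion. Separate animals or cultures are not stated for the 3 samples within a group, so the spread behind each p-value may be technical only.

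Type IV collagen is the network-forming collagen of basement membranes, the thin sheets that underlie epithelia and endothelia and wrap muscle cells. The products of Col4a1 and Col4a2 join each other in almost every basement membrane, those of Col4a3, Col4a4 and Col4a5 in the kidney glomerulus and a few other sites, and those of Col4a5 and Col4a6 around smooth muscle and in some epithelia. The liver sinusoid has no continuous basement membrane in health, and stellate and endothelial cells both deposit type IV collagen in the space of Disse. Collagens XV and XVIII, the multiplexins, have a collagen domain broken by many interruptions, carry glycosaminoglycan chains, and end in a domain that proteases release, called endostatin in collagen XVIII.

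Levels are given as log2 signal relative to the 75th percentile of the array, so that 0 is the level of a moderately bright probe. The levels of different probes cannot be set against each other as amounts of RNA. Sums and shares over several probes, given below, therefore describe array signal only. Of all probes, 60.1 to 64.0% were above background on the Cav1-siRNA arrays, 61.9 to 69.0% on the control-siRNA arrays and 51.5 to 58.4% on the quiescent arrays. Cav1, the targeted gene, had log2 signals of -2.87, -2.89 and -3.07 on the Cav1-siRNA arrays and -1.34, -1.12 and -1.09 on the control-siRNA arrays, lower on every array as labelled (log2 change -1.76, limma adjusted p = 0.145). The activated arrays carried Acta2, smooth muscle actin, at 7.62 with the Cav1 siRNA and 7.42 with the control siRNA, against -0.95 in quiescent cells. The quiescent arrays also carried other liver cell types. Over 12 hepatocyte markers the summed level, in multiples of the 75th percentile, was 13.8 to 14.9 on Cav1-siRNA arrays, 15.3 to 19.6 on control-siRNA arrays and 1260 to 1520 on quiescent arrays, and over 14 endothelial markers it was 0.846 to 0.916 on Cav1-siRNA arrays, 0.896 to 0.949 on control-siRNA arrays and 352 to 594 on quiescent arrays. In cultured cells Ass1, a urea cycle enzyme, made up 98.5% (Cav1-siRNA) and 98.4% (control-siRNA) of the hepatocyte sum, and the other 11 markers together gave 0.217 to 0.229 and 0.257 to 0.322, against at least 943 on quiescent arrays without the brightest marker there. Of the 12 hepatocyte markers 7 in Cav1-siRNA cells and 4 in control-siRNA cells were above background on no array, as were 5 of the 14 endothelial markers in either, while quiescent cells had all of them. On bulk RNA, a change in the number of cells of a type and a change in RNA per cell cannot be told apart.

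The first comparison sets control-siRNA cells against quiescent cells. The groups differ in culture, in siRNA transfection and in the levels of other liver cells' markers, and these cannot be told apart here. Of the 7 chains tested, 6 rose and 1 fell. Col4a5 and Col4a6, near the detection limit in quiescent cells and not above background on 1 of the 3 arrays, rose by a fitted 272-fold and 323-fold. These sizes were smaller with another background correction, normexp (log2 changes of 6.21 and 6.48, against 8.08 and 8.34). That correction was run with an offset of 50 added to every signal, which by construction narrows the changes of dim probes. Col4a1 and Col4a2, the chains of nearly all basement membranes, were already bright on the quiescent arrays, and which cells carried that signal was not tested. They rose by 5.81-fold and 4.87-fold. Col4a4 and Col15a1 rose to low levels, and Col18a1 was 10.0-fold lower in control-siRNA cells. Among all genes 68.1% were called (limma, Benjamini-Hochberg adjusted p under 0.05), 42.1% higher and 26.0% lower, so a call in itself is common here. For each of the 7 chains the control-siRNA arrays did not overlap the quiescent arrays, 6 lying above and 1 below, which 69.8% of all genes also showed, 42.9% above and 27.0% below. The median log2 change of the 7 chains was +2.79, or +2.54 with Col15a1 at its lower bound, against +0.32 for all genes. Within slide 1 (control-siRNA array 1 against the 3 quiescent arrays) the log2 changes were 2.67 for Col4a1, 2.09 for Col4a2, 8.2 for Col4a5, 8.43 for Col4a6 and -3.43 for Col18a1, all called, with the lone array taken to vary like the others. Col15a1 was called there too, while Col4a4 was not (2.44, adjusted p = 0.211).

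**Figure D1:**
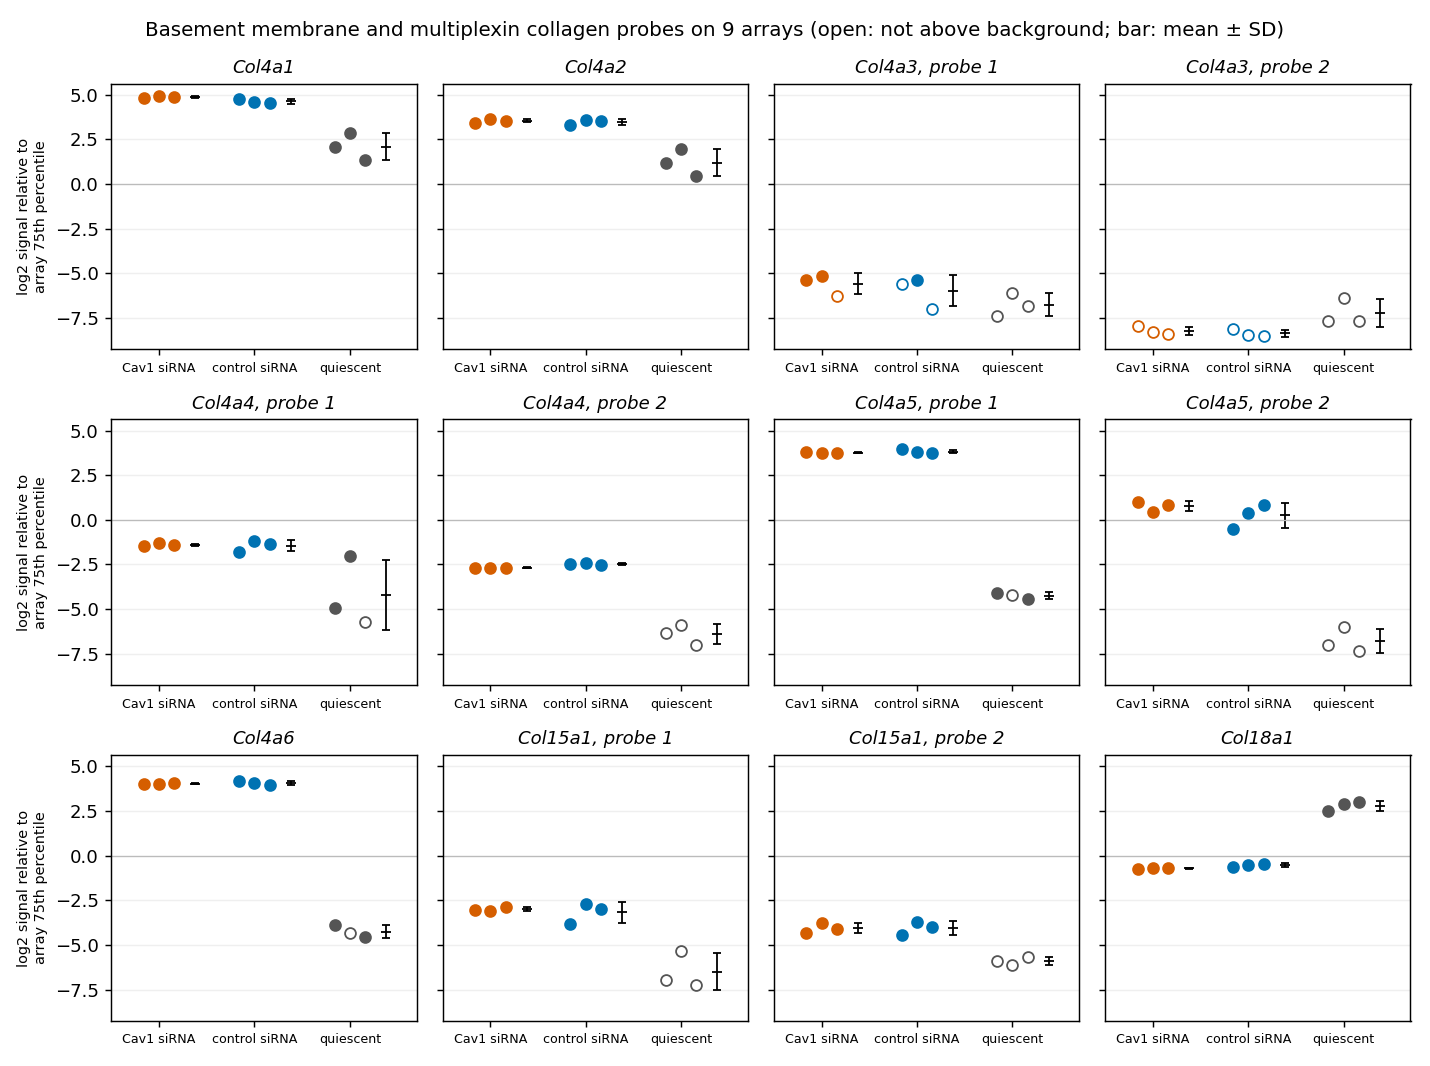
Log2 signal relative to the array's 75th percentile (y axis) of the 12 probes on each of the 9 arrays, by group (x axis), with the mean ± SD of 3 arrays as a black bar. Open circles are spots not above background. The brighter Col4a5 probe and the Col4a6 probe sit near 4 in cultured cells and near -4 in quiescent cells, Col18a1 shows the opposite order, and the Cav1-siRNA and control-siRNA points overlap or lie close for every probe.

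Col4a1 and Col4a2 lie head to head on chromosome 8 and share a promoter region. Their start windows, 250 bases before to 50 after the annotated start (RefSeq, GRCm38.p6), are shown because both chains rose in the cultured cells, and the 78 bases that both windows hold are in capitals.
Col4a1, chr8:11312777-11313076, minus strand: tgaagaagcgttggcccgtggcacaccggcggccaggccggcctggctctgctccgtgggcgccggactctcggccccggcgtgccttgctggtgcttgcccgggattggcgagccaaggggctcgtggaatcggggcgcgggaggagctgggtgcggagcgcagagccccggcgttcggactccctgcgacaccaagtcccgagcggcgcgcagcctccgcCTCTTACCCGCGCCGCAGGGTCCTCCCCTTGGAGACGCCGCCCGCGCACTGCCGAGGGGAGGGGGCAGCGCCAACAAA
Col4a2, chr8:11312555-11312854, plus strand: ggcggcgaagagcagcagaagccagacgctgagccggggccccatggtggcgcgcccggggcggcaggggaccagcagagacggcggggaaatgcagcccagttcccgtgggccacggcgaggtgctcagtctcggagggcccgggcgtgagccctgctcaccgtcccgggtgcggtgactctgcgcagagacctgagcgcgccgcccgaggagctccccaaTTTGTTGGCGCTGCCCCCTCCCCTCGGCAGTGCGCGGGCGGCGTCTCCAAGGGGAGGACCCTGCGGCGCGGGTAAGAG
The windows are 74.0% and 73.7% G or C, against a median of 52.7% over 32851 windows of the same length in RefSeq. Each holds a GC box (GGGCGG on either strand), 1 match in the Col4a1 window and 3 in that of Col4a2, and each holds 1 CCAAT box (CCAAT on either strand). No TATA box (TATAAA) was found in them. Of all windows 35.7% hold the GC box letters, 37.4% the CCAAT letters and 13.6% the TATA letters, and none of these matches shows that a factor binds.

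Col4a1, measured by a probe at chromosome 8, 11199009 to 11199068, minus strand (mm9), had log2 signals of 4.83, 4.95 and 4.86 in Cav1-siRNA cells, 4.77, 4.62 and 4.52 in control-siRNA cells, and 2.10, 2.87 and 1.33 in quiescent cells. The cultured arrays all lay above the quiescent ones, and the quiescent arrays were far more spread (SD 0.13 in control-siRNA cells and 0.77 in quiescent cells, n = 3 each). Col4a1 rose by a log2 of 2.54 in control-siRNA cells (SE 0.33, 95% interval 1.80 to 3.28, limma adjusted p = 0.000111).

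Col4a2, measured at chromosome 8, 11448840 to 11448899, plus strand (mm9), had log2 signals of 3.44, 3.64 and 3.55 in Cav1-siRNA cells, 3.29, 3.61 and 3.54 in control-siRNA cells, and 1.18, 1.95 and 0.46 in quiescent cells. Quiescent array 2 was the highest of its group for both chains and quiescent array 3 the lowest. Col4a2 rose by a log2 of 2.28 (SE 0.32, 95% interval 1.55 to 3.01, limma adjusted p = 0.000204).

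The difference between the paired chains was steady among the quiescent arrays, all on slide 1. In control-siRNA cells array 1, which alone was on slide 1, stood apart from arrays 2 and 3. The log2 signal of Col4a1 minus that of Col4a2 was 1.48, 1.01 and 0.97 in control-siRNA cells and 0.92, 0.92 and 0.87 in quiescent cells, with SDs of 0.28 in control-siRNA cells and 0.03 in quiescent cells. The SDs of Col4a1 and Col4a2 alone were 0.13 and 0.17 in control-siRNA cells and 0.77 and 0.75 in quiescent cells. By root mean square difference of the centred profiles over the 9 arrays, Col4a2 ranked 38 of 23944 genes in likeness to Col4a1 (0.22 on the log2 scale), and Col4a1 ranked 58 in likeness to Col4a2. The genes nearest to Col4a1 that were above background on all 9 arrays were Mki67, the proliferation marker, Tgfb1i1, the focal adhesion adaptor Hic-5, and Armcx6, at 0.16 to 0.17. Those nearest to Col4a2 were Pcdhga9, a clustered protocadherin, Itga5, the fibronectin receptor subunit, and Depdc1b, at 0.15 to 0.16. The 9 arrays form a quiescent and a cultured cluster, so any gene with a like step between them ranks high.

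**Figure D2:**
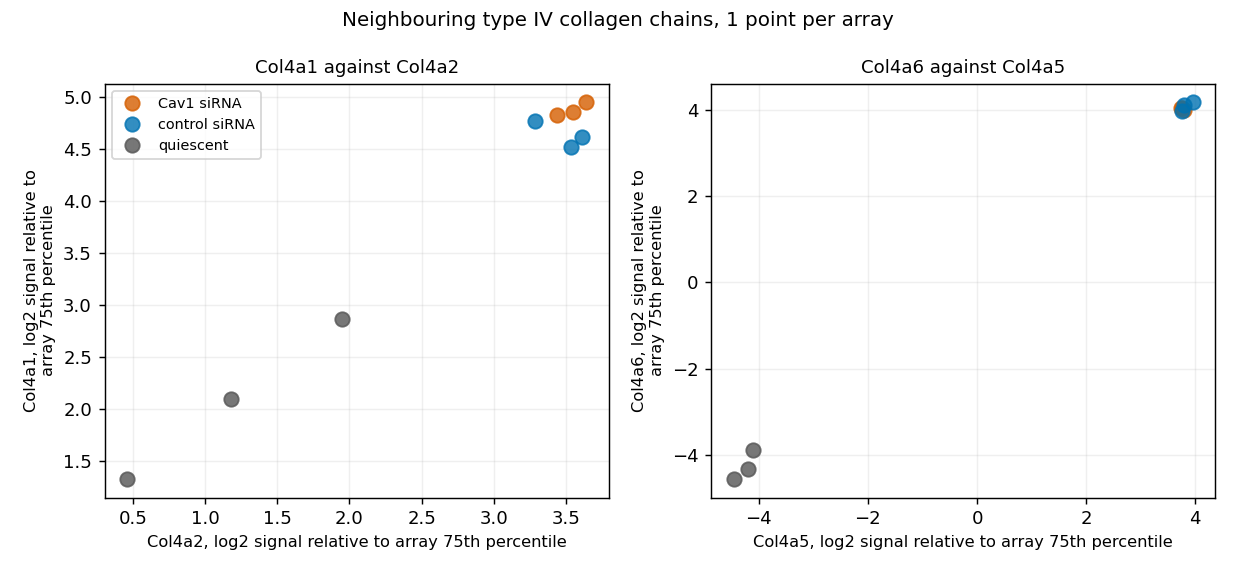
Log2 signal of neighbouring chains on each of the 9 arrays, Col4a1 against Col4a2 (left) and Col4a6 against Col4a5 (right), with 1 point per array coloured by group. The 3 quiescent arrays spread along a line for Col4a1 and Col4a2, and the cultured arrays bunch at the upper right of both panels.

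Col4a5 and Col4a6 are neighbours on the X chromosome, also head to head, with starts farther apart than those of the first pair. Their windows are shown because these chains had the largest rises of the family. Capitals mark matches to the GC, CCAAT or TATA box letters.
Col4a5, chrX:141475169-141475468, plus strand: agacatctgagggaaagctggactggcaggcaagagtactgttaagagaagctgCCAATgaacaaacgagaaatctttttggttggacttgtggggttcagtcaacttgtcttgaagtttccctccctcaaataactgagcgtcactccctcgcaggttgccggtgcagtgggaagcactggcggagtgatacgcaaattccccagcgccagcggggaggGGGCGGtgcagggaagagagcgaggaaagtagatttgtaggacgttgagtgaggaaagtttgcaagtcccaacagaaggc
Col4a6, chrX:141474027-141474326, minus strand: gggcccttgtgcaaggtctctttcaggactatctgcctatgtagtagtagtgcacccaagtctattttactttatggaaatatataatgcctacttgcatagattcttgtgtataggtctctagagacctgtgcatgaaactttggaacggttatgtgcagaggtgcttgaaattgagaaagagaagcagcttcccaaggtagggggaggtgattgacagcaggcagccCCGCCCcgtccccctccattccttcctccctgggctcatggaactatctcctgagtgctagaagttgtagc
The Col4a5 and Col4a6 windows share no base. They hold 52.7% and 48.3% G or C, each has 1 GC box match, the Col4a5 window has 1 CCAAT match, and neither has TATA box letters.

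Col4a5, measured by its brighter probe at chromosome X, 138123547 to 138123606, plus strand (mm9), had log2 signals of 3.80, 3.76 and 3.74 in Cav1-siRNA cells, 3.95, 3.79 and 3.76 in control-siRNA cells, and -4.11, -4.20 and -4.45 in quiescent cells. The groups of cultured cells were tightly packed and the quiescent arrays sat at the edge of detection, with quiescent array 2 not above background. The rise was a log2 of 8.08 (SE 0.14, 95% interval 7.77 to 8.40, limma adjusted p = 8.69e-10), the 27th smallest p-value of 23945 genes.

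A second Col4a5 probe, at 138122995 to 138123054 on the same strand, was dimmer. It had log2 signals of 1.01, 0.44 and 0.85 in Cav1-siRNA cells, -0.51, 0.41 and 0.85 in control-siRNA cells, and -7.04, -6.03 and -7.34 in quiescent cells, none of the last above background. On that probe Col4a5 was at least 37.1-fold higher in control-siRNA cells, where the floor of each quiescent array is its dimmest signal still above background (limma adjusted p over all probes = 5.43e-07). Both probes put every cultured array above every quiescent array.

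Col4a6, measured at chromosome X, 137599990 to 137600049, minus strand (mm9), had log2 signals of 4.0, 4.04 and 4.05 in Cav1-siRNA cells, 4.17, 4.10 and 3.97 in control-siRNA cells, and -3.88, -4.32 and -4.55 in quiescent cells. Here too quiescent array 2 was not above background. Col4a6 rose by a log2 of 8.34 (SE 0.18, 95% interval 7.93 to 8.74, limma adjusted p = 2.14e-09), the 35th largest rise of all genes. Under the normexp background model with its offset of 50, the log2 rises were smaller, 6.21 for Col4a5 and 6.48 for Col4a6 (75th percentile scaling). Both stayed called.

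Each was the second nearest gene to the other of 23944 by profile (root mean square difference 0.16). The nearest genes above background on all 9 arrays were Epdr1, Fbln2, a fibulin of elastic fibres and basement membranes, and Vegfd, a lymphatic growth factor, for Col4a5 (0.14 to 0.24), and Ltbp2, a fibrillin-binding matrix protein, Epdr1 and Acta2 for Col4a6 (0.17 to 0.23).

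Col4a3 and Col4a4 form another head-to-head pair, on chromosome 1. Col4a3 was not tested. Its brighter probe, at 82714546 to 82715399, plus strand (mm9), a span longer than the 60-base probe, had log2 signals of -5.36, -5.17 and -6.27 in Cav1-siRNA cells, -5.60, -5.38 and -6.99 in control-siRNA cells, and -7.37, -6.10 and -6.83 in quiescent cells. It was above background on 2 Cav1-siRNA arrays, 1 control-siRNA array and no quiescent array, and no fold is given. The other Col4a3 probe was above background on no array.

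Col4a4 was measured by 2 probes. The brighter, at chromosome 1, 82445053 to 82445112, minus strand (mm9), had log2 signals of -1.45, -1.32 and -1.40 in Cav1-siRNA cells, -1.79, -1.18 and -1.36 in control-siRNA cells, and -4.96, -2.0 and -5.73 in quiescent cells. Quiescent array 2 stood apart from its group, close to the cultured arrays, and quiescent array 3 was not above background. The log2 rise was 2.79 (SE 0.79, 95% interval 1.00 to 4.57, limma adjusted p = 0.0114). It was 3.90 without quiescent array 2 (adjusted p = 4.45e-06) and 2.04 without quiescent array 3 (adjusted p = 0.040), and the call was lost with the slide as a block (2.44, adjusted p = 0.12) as it was within slide 1 (values above).

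The dimmer Col4a4 probe, at 82448113 to 82448172, gave a cleaner separation. Its log2 signals were -2.69, -2.67 and -2.67 in Cav1-siRNA cells, -2.49, -2.39 and -2.52 in control-siRNA cells, and -6.33, -5.88 and -7.00 in quiescent cells, where it was above background on no array. On that probe Col4a4 was at least 5.65-fold higher in control-siRNA cells (limma adjusted p over all probes = 9.6e-07). Quiescent array 2 was again the highest of its group, but far below the cultured arrays. With normexp correction and its offset of 50, the log2 rise of the brighter probe was 1.1 after 75th percentile scaling. It was 1.44 after quantile normalization, and was called in both. Genes nearest to Col4a4 in profile were Melk, a mitotic kinase, Piezo2, a mechanically gated channel, and Gpnmb, a transmembrane glycoprotein, at 0.34 to 0.37. This likeness rests in part on quiescent array 3, where the brighter probe was not above background.

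Quiescent array 2 was the highest of its group for Col4a1, Col4a2 and the brighter probe of Col4a4. It was also the highest for the dimmer probes of Col4a4 (-5.88) and Col4a5 (-6.03), the brighter Col15a1 probe (-5.33) and both Col4a3 probes, but none of these values was above background. For Col4a6, the brighter Col4a5 probe, the dimmer Col15a1 probe and Col18a1 it was not the highest. The same array had the highest median log2 signal of its group for the 14 basement membrane partner genes described further on (1.40, against 0.19 and -0.21 on quiescent arrays 1 and 3), for 13 activation markers (0.71, against 0.02 and -0.90), for 14 quiescent stellate markers (0.88, against -0.10 and -0.39) and for 14 endothelial markers (4.63, against 3.90 and 3.68). The same held for hepatocyte markers (6.65, against 6.55 and 6.58), mesothelial and portal fibroblast markers (-2.09, against -2.11 and -2.26) and smooth muscle markers (-2.42, against -2.99 and -3.93). It held as well for the assembly, receptor and protease lists described further on. Quiescent array 2 was not the highest for macrophage markers (4.3, against 4.9 on quiescent array 1), lymphocyte or neutrophil markers (1.92, against 2.08) or cholangiocyte markers (-1.79, against -1.55). Quiescent array 2 also had the smallest share of probes above background, 51.5%, and the highest detection floor, a log2 signal of -4.08, against -5.41 on both others. The part of these in the collagen values was not tested.

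The multiplexins went in opposite directions. Col15a1, which bridges basement membranes to the collagen fibrils around them, was low throughout. Its brighter probe, at chromosome 4, 47325273 to 47325332, plus strand (mm9), had log2 signals of -3.06, -3.08 and -2.87 in Cav1-siRNA cells, -3.83, -2.73 and -2.98 in control-siRNA cells, and -6.96, -5.33 and -7.23 in quiescent cells. It was above background on all 6 cultured arrays and on no quiescent array, so Col15a1 was at least 3.45-fold higher in control-siRNA cells (limma adjusted p = 0.000225). With normexp correction and its offset of 50, the log2 rise was smaller than the 3.33 without it. It was 0.41 after 75th percentile scaling (limma adjusted p = 0.0148) and 0.91 after quantile normalization (limma adjusted p = 0.000191). The offset is larger than the deposited quiescent signals of this probe, 2.58 to 9.82, so it narrows the rise by construction.

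The dimmer Col15a1 probe, at 47283786 to 47283845, is shown because its letters place it in the triple-helical part of the chain: read in 1 frame with no stop, it has a glycine codon (capitals) at each of the 6 places where the collagen repeat puts one.
Col15a1 dimmer probe: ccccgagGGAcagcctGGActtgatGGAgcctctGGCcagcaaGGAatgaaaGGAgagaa
It had log2 signals of -4.31, -3.77 and -4.09 in Cav1-siRNA cells, -4.45, -3.70 and -4.00 in control-siRNA cells, and -5.88, -6.11 and -5.67 in quiescent cells, again with no quiescent array above background. On it Col15a1 was at least 1.89-fold higher in control-siRNA cells (limma adjusted p over all probes = 9.9e-05). Both probes were higher on every cultured array and above background on no quiescent array. Nearest in profile to Col15a1 were Creb3l1, a transcription factor of collagen-secreting cells, Mmp14, a membrane-bound matrix protease, and Plcd3, a phospholipase, at 0.29 to 0.30. No quiescent value of Col15a1 was above background, so this likeness rests on a step whose size was not measured.

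Col18a1, the source of endostatin, was the exception. It is transcribed from separate starts that give long and short forms, and the windows of both RefSeq starts are shown because this was the chain that fell. Capitals mark matches to the same box letters.
Col18a1 upstream start, chr10:77166481-77166780, minus strand: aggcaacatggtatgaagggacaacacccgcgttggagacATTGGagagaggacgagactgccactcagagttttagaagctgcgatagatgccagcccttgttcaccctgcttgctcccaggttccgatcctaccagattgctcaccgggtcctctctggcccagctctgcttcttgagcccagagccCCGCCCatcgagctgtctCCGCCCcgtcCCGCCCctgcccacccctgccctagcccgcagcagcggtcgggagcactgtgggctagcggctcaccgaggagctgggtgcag
Col18a1 downstream start, chr10:77113656-77113955, minus strand: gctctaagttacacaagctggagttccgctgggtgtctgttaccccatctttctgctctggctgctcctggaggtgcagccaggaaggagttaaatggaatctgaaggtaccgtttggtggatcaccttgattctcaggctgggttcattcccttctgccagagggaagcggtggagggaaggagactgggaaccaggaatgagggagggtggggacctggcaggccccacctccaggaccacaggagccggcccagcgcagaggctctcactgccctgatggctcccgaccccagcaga
The upstream window has 63.3% G or C, 3 GC box matches and 1 CCAAT match, and the downstream window has 59.7% G or C and none of the searched letters. The probe, at chromosome 10, 76515820 to 76515879, minus strand (mm9), is listed against 2 RefSeq transcripts, and which start each comes from was not derived here.

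Log2 signals of Col18a1 were -0.72, -0.69 and -0.70 in Cav1-siRNA cells, -0.64, -0.51 and -0.45 in control-siRNA cells, and 2.48, 2.89 and 3.01 in quiescent cells. All cultured arrays lay below all quiescent arrays, with every spot above background. Col18a1 fell by 3.32 on the log2 scale in control-siRNA cells (SE 0.16, 95% interval -3.69 to -2.96, limma adjusted p = 1.72e-07). It fell under each of 22 alternative settings, by 3.15 to 3.48, though some of them, such as leaving out a Cav1-siRNA array, cannot move this estimate. All 12 hepatocyte markers and all 14 endothelial markers fell as well, with medians of -12.9 and -9.11 (-12.27 and -8.31 with markers below background at their bounds) and the summed levels given above, and their part in the Col18a1 value was not tested. Nearest in profile were Tle1, a transcriptional corepressor, Arl4a, a small GTPase, and Gstp1, a glutathione transferase, at 0.12 to 0.14.

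**Figure D3:**
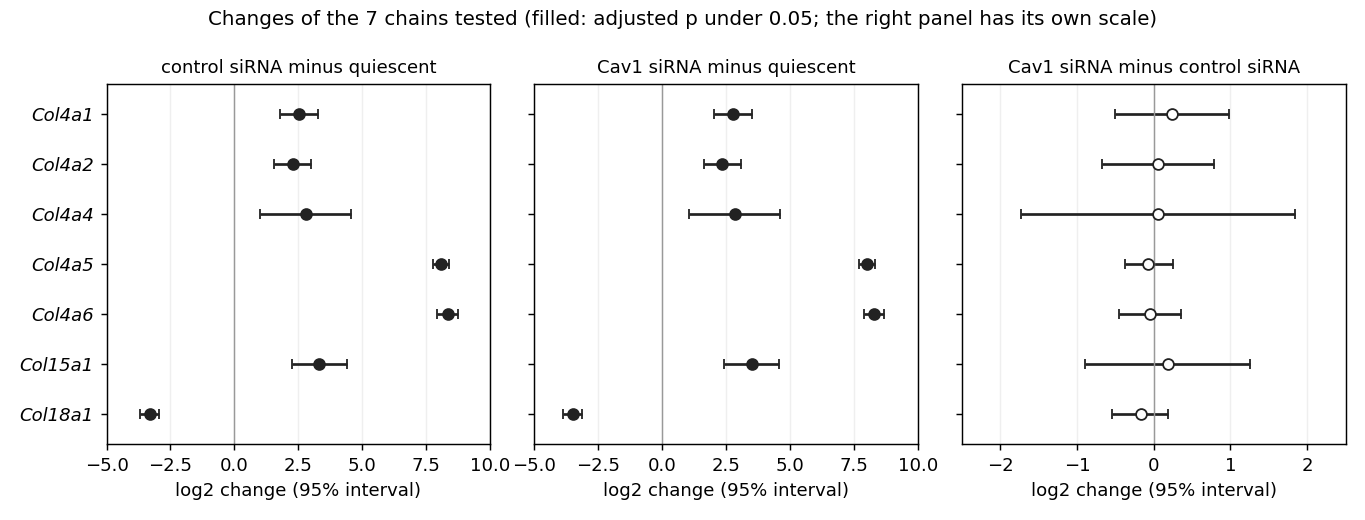
Log2 change (x axis) with its 95% interval for the 7 chains tested (y axis), in control-siRNA cells minus quiescent cells (left), Cav1-siRNA cells minus quiescent cells (middle) and Cav1-siRNA cells minus control-siRNA cells (right, on its own scale). Filled points passed an adjusted p under 0.05. The left and middle panels show 6 rises and 1 fall each, the right panel has no filled point, and the Col15a1 points in the first panels are fitted values against a group below background.

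The second comparison, Cav1-siRNA cells against control-siRNA cells, tests the knockdown in activated cells. None of the 7 chains passed the test in either direction. Their log2 changes ran from -0.17 to +0.24, with limma adjusted p = 0.9998 for each. No gene of the 23945 passed by limma (0% called), while 1189 genes, or 4.97%, had an unadjusted p under 0.05, and 0 of the 7 chains were among them.

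Col4a1 was the chain with the largest change, a log2 of +0.24 (SE 0.33, 95% interval -0.50 to 0.98), and all its Cav1-siRNA arrays lay above all control-siRNA arrays. Col18a1 had a log2 change of -0.17 (95% interval -0.54 to 0.19), with all Cav1-siRNA arrays below all control-siRNA arrays. Among all genes 22.6% were separated in this way, 8.62% upward and 14.0% downward, so the 1 chain of 7 in each direction is close to that background. The other 5 chains overlapped between the groups. Their changes were +0.18 for Col15a1 (95% interval -0.90 to 1.26), +0.06 for Col4a2 (-0.67 to 0.79), +0.05 for Col4a4 (-1.73 to 1.84), -0.05 for Col4a6 (-0.46 to 0.36) and -0.07 for Col4a5 (-0.38 to 0.25).

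Within slide 2, which held all Cav1-siRNA arrays and control-siRNA arrays 2 and 3, the 7 changes ran from -0.23 for Col18a1 to 0.31 for Col4a1, and none was called.

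The intervals show how much change these arrays could have missed, on a spread that may be technical only. They are read here on the brightest probe of each gene. They exclude a change of 2-fold (a log2 of 1) in either direction for Col4a1, Col4a2, Col4a5, Col4a6 and Col18a1. For Col4a4 and Col15a1 they do not. That limit moved with the arrays in the fit, which shares its spread with the quiescent group: the SE was 0.79 for Col4a4 and 0.48 for Col15a1 over all 9 arrays, and 0.16 and 0.29 with the 2 siRNA groups alone. The SE of every other chain was smaller there too. For Col4a1 it was 0.33 over all 9 arrays and 0.09 with the 2 groups alone, and for Col18a1 0.16 and 0.08. With the 2 groups alone neither was called (limma adjusted p = 0.353 for Col4a1 and 0.421 for Col18a1). The dimmer probes gave log2 changes of +0.52 for Col4a5 (95% interval -0.41 to 1.45), -0.21 for Col4a4 (-0.77 to 0.36) and -0.01 for Col15a1 (-0.53 to 0.52). The Col4a5 probes thus differed in sign with both intervals across 0. The interval of the dimmer Col4a5 probe does not exclude a 2-fold rise. Those of the dimmer Col4a4 and Col15a1 probes exclude 2-fold in either direction. The log2 signal of Col4a1 minus that of Col4a2 was 1.38, 1.31 and 1.30 in Cav1-siRNA cells and 1.48, 1.01 and 0.97 in control-siRNA cells, with overlap between the groups.

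In the third comparison, Cav1-siRNA cells against quiescent cells, the same 6 chains rose and Col18a1 fell, among 67.6% of genes called, 40.4% higher and 27.2% lower. Their arrays did not overlap either, as for 71.7% of all genes, 42.7% above and 29.0% below. The quiescent arrays are shared with the first comparison, so the values stand side by side as descriptions. The log2 changes were +2.78 for Col4a1 (adjusted p = 5.98e-05), +2.35 for Col4a2 (0.000168), +2.84 for Col4a4 (0.0104), +8.02 for Col4a5 (7.88e-10), +8.28 for Col4a6 (2.17e-09) and -3.50 for Col18a1 (1.21e-07), all by limma. Col15a1 was at least 3.90-fold higher (limma adjusted p = 0.000158). The Col4a4 call was lost with the slide as a block (log2 change 2.33, adjusted p = 0.26). No slide held both Cav1-siRNA and quiescent arrays, so the slide enters that fit through the control-siRNA group.

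Other genes of the basement membrane were read from lists of partners, assembly factors, receptors and proteases. Among 14 tested laminin, nidogen and proteoglycan genes, 10 rose and 3 fell in control-siRNA cells (median log2 change +2.30, against +0.32 for all genes). The laminin chains Lamb1 (log2 signal 5.70 ± 0.03 in control-siRNA cells and 0.78 ± 0.83 in quiescent cells, SD, n = 3 each), Lama1 (4.22 ± 0.03 and 0.32 ± 0.97) and Lamc1 (5.16 ± 0.21 and 1.78 ± 0.62) rose. Nid2, a nidogen and so a linker of laminin to type IV collagen, also rose (3.33 ± 0.02 and -1.26 ± 0.21). The 3 genes that fell were laminin chains as well. They were Lama2 (log2 change -2.14), Lama4 (-0.69) and Lama3 (a fitted -5.62, with no control-siRNA array above background).

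Of 18 genes that fold, modify, export or crosslink the chains, 16 rose and 2 fell (median +2.37). The prolyl isomerase Fkbp10 rose by a log2 of 6.81, the crosslinking oxidases Loxl1 and Loxl2 by 6.10 and 4.07, and Serpinh1, the collagen chaperone, by 4.04. Among 11 receptor genes 9 rose and 0 fell (median +2.31). Those above background on all 6 arrays included the collagen-binding kinases Ddr2 (+4.88) and Ddr1 (+4.86) and the integrin chains Itga3 (+4.45) and Itgav (+3.25). Of 11 proteases and inhibitors 7 rose and 2 fell (median +3.13), with the inhibitors Timp1 (+8.73) and Timp2 (+4.37) and the type IV collagenase Mmp2 (+5.81) rising and the lysosomal protease Ctss (-5.49) falling. In Cav1-siRNA against control-siRNA cells no gene of these 4 lists passed the test, and their medians were -0.10, +0.04, -0.02 and +0.11, against -0.04 for all genes.

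**Figure D4:**
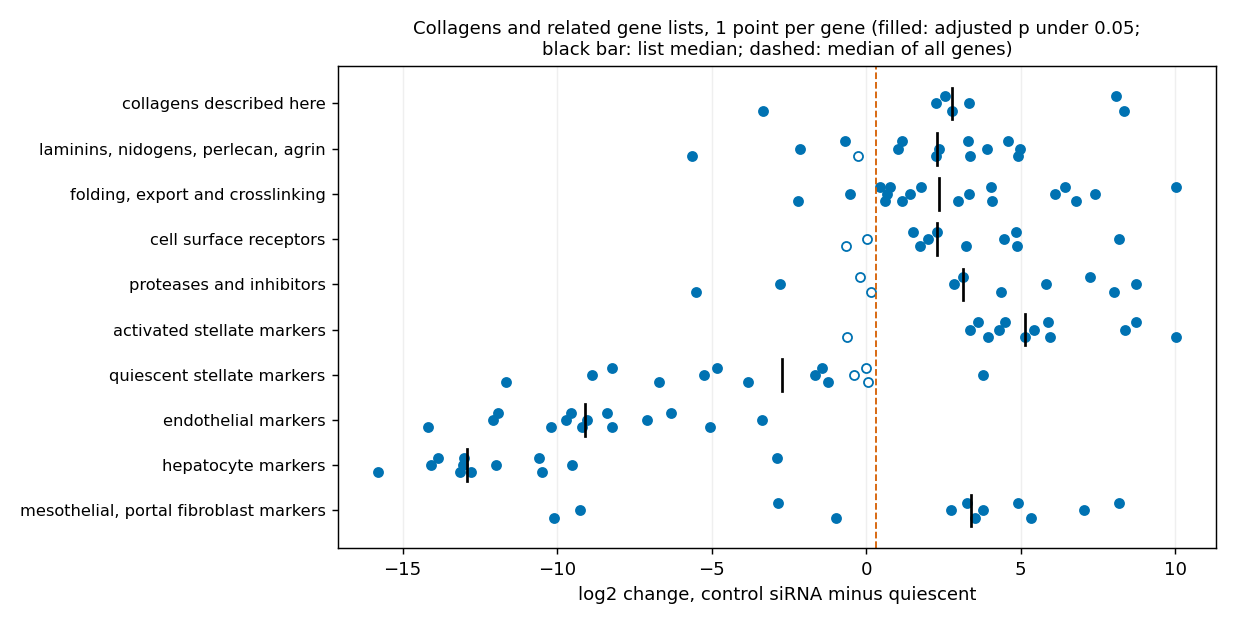
Log2 change in control-siRNA cells minus quiescent cells (x axis) for the 7 chains and for each gene of 9 related lists (rows), with 1 point per gene, filled at an adjusted p under 0.05, the list median as a black bar and the median of all genes, +0.32, as a dashed line. Collagens, partners, assembly factors, receptors and proteases have medians from +2.30 to +3.13, while hepatocyte and endothelial markers lie to the left.

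Markers of other cells in a stellate culture were read beside these rises. Mesothelial and portal fibroblast markers split, 8 of 12 being higher and 4 lower (median log2 change +3.39, or +3.00 with 1 marker at its bound), and their summed level was 229 to 242 on control-siRNA arrays and 37.4 to 62.5 on quiescent arrays. Different genes carried it, Fbln2 and Cd34 with 87.2% of the sum in control-siRNA cells and the keratins Krt18 and Krt8 with 92.9% in quiescent cells, so the sums do not follow 1 cell class. They included Fbln2 (+8.19), also near Col4a5 in profile, Wt1, a mesothelial transcription factor (+7.07), Cd34 (+5.34) and the epithelial keratin Krt8 (-9.27). Smooth muscle markers had 4 of 6 rising and 1 falling (median +1.51), with summed levels of 31.5 to 34.5 on control-siRNA arrays and 4.35 to 7.53 on quiescent arrays, and activation markers had 12 of 13 rising and 0 falling (median +5.13). Quiescent stellate markers were mostly lower, 1 of 14 rising and 10 falling, as were all 11 macrophage and all 9 lymphocyte or neutrophil markers. Of 6 cholangiocyte markers 2 rose, Spp1 (+3.37) and Sox9 (+0.71), and 3 fell. The lists share genes: Spp1 is also an activation marker, and Cnn1 is in both the smooth muscle and activation lists. Timp1 is in the activation and protease lists, and Lox in the activation and assembly lists. The part of mesothelial or smooth muscle cells in the collagen rises was not tested. Scaling moved the median change of all genes, from +0.32 to +0.47 with median scaling, -0.12 with normexp followed by 75th percentile scaling and +0.15 with normexp followed by quantile normalization, and all 7 chains kept their direction under each.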

How the data were processed

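Agilent Feature Extraction 10.7.1.1 is named in the submitters' processing notes. Per the file headers, the deposited processed signal is an intensity per spot with the background already subtracted and a multiplicative trend removed; arrays had not been scaled to each other. The deposited series table holds the same intensity averaged per probe (99.87% of values within 0.1%).

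Signals of the 59305 non-control spots were put on the log2 scale, each array's 75th percentile was subtracted, and repeat spots were averaged, leaving out those marked as outliers. No spot was saturated. The probe with the highest mean stood for its gene. The test was limma (3.58.1, under R 4.3.3; lmFit, then eBayes, on the 9 arrays together, two-sided, Benjamini-Hochberg over all genes, calls at an adjusted p under 0.05). The fit was run on simulated data in which each gene had the same spread in every group. That run does not bear on the unequal spread of the groups here. Per the file headers, probes are placed on mm9, and promoter windows are from RefSeq on GRCm38.p6. Genes were named in the text by rule: all members, up to 4 called genes per list with the largest changes among those measured on all 6 arrays compared, and the 3 genes nearest to each member. The laminin chains that fell and genes shared between lists were named in addition.

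Precision is limited by the number of arrays, 3 a group, and for dim probes by background. Of the 2 slides, the first carried control-siRNA array 1 beside the quiescent arrays, and the other 5 arrays shared the second. Alternatives covered scaling, background correction, filters, probes, slide, replicate number, array weights and leaving out each array. The normexp settings added an offset of 50 to every signal. The members and lists were chosen with earlier results of these data known. Figures were drawn with matplotlib 3.10.9.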

Additional observations from a re-analysis of the deposited data

How the results depend on the processing

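The counts of chains called, 7 in control-siRNA and in Cav1-siRNA cells against quiescent cells and 0 between the siRNAs, were kept under every alternative that tested all 7, apart from Col4a4 with the slide as a block and on slide 1 alone. With the filter on all 9 arrays 3 chains remained testable, Col4a1, Col4a2 and Col18a1, and 3 were called against quiescent cells in both comparisons. No chain changed direction against quiescent cells in any setting.

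Between the siRNAs, 0 genes were called in the main setting, 7 with normexp (75th percentile scaling), 5 with normexp (quantile normalization), 6 with the filter on all 9 arrays, 5 with only the 2 groups in the fit, 655 with array weights and 0 to 2 without each array in turn (2 without quiescent array 1), and no chain was among them. For control-siRNA against quiescent cells the count of 16313 was 25010 over every kept probe, 7605 on slide 1 alone and 14572 to 16807 without each array. For Cav1-siRNA against quiescent cells the count of 16193 was 24903 over every kept probe, 10131 with the slide as a block and 14480 to 16764 without each array. The cause of these differences was not tested. Some of the settings also differ in the number of tests or of arrays. Of the calls in control-siRNA cells 61.8% were higher, against 46.3% with normexp (75th percentile scaling) and 47.0% with no filter, and in Cav1-siRNA cells 59.8% were higher, against 45.2% and 46.3%.

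With the replicate block 15822, 0 and 15717 genes and 7, 0 and 7 chains were called in the 3 comparisons. Samples of the same number share only a number: the correlation of their deviations from the group means ran from -0.11 to 0.17. Slide 2 alone called 0 genes between the siRNAs. Signal over background limits the sizes for Col4a4, Col4a5, Col4a6 and Col15a1.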
